A study of Mus musculus with 18 samples.

Results

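NK cells and CD8 T cells, the circulating killer lymphocytes of the innate and the adaptive arm of the immune system, were compared across all measured genes on 4 of 18 arrays, 2 arrays for each population. The members were chosen by their titles, which name NK or T8 cells of the spleen 2 h after interferon gamma (IFNg). NK cells had been gated as NK1.1+ TCRB- and CD8 T cells, labelled T8, as CD8+ TCRB+, both from male C57BL/6 mice aged 6 weeks that received 10000 U of IFNg under the skin. The other arrays hold 7 further populations of such mice, of which NKT (NK1.1+ TCRB+), T4 (CD4+ TCRB+), Tgd (gamma delta T cells) and Treg (CD25+ CD4+ TCRB+) are used below for levels only. Every array came from a treated mouse. Untreated mice were not analysed here, so each value is a level after IFNg and none is a response to it. The NK gate does not by itself part NK cells from other NK1.1+ lymphocytes without a T cell receptor, and the T8 gate takes naive and memory cells together. The labels number the arrays 2 and 3 in both populations and do not say whether these came from separate mice or from pools, so the p-values rest on the spread between arrays, which may be technical.

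NK cells kill without prior sensitization, when activating receptors that pair with adaptor proteins outweigh inhibitory receptors for MHC class I. CD8 T cells kill after their T cell receptor has met a peptide on MHC class I, and resting ones must first divide and load granules. IFNg, made by both, binds the receptor chains Ifngr1 and Ifngr2, which act through Jak1 and Jak2 to switch on GTPases of cell-autonomous defence, MHC class I presentation genes and part of the antiviral programme.

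Values are log2 intensities, and those of an array pair are given in the order replicate 2, replicate 3. Where arrays are said not to overlap, this describes 2 arrays against 2. Such a gap is common by chance, and its share over all genes is not given here. Median intensity was 138.5 to 149.9 on the linear scale over the 4 arrays, inside the 138.5 to 151.0 of all 18. Across 19752 genes, which are not independent replicates, Pearson's r was 0.9897 between the NK arrays, 0.994 between the T8 arrays and 0.9435 to 0.9523 between an NK and a T8 array. Replicates were at least 2-fold apart at 51 genes in NK and 35 in T8. Of the 35, 28 were higher on T8 replicate 3, led by Fos (2.60 higher), Dusp1 (2.46), Ifng (2.27), Ctla4 (1.84) and Gzmb (1.45), so that results on such genes are also given without 1 T8 array. The summed linear intensity of 20 immediate early genes, which rise within minutes of a stimulus and also during tissue handling, was 9927 and 19500 on the T8 arrays and 20854 and 29736 on the NK arrays.

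The sorting markers lay where the gates put them. Ncr1, the NK receptor NKp46, read 12.89 and 13.10 on the NK arrays and 5.05 and 4.94 on the T8 arrays, a difference of 8.0 ± 0.22 (SE, n = 2 against 2, adjusted p = 5.32e-14). Klrb1c, which encodes NK1.1, read 12.56 and 12.58 against 5.83 and 5.81. Cd8a, the CD8 alpha chain, read 6.76 and 7.17 on the NK arrays and 12.28 and 12.24 on the T8 arrays, and its partner Cd8b1 was 41.1-fold higher in T8. No array of either population came near the other at these 4 genes. Because the gates used 3 of these proteins or their complexes, the values check the labels and are not results. Cd4 (6.56 and 6.97 against 6.6 and 6.41) and Foxp3 (7.28 and 6.98 against 7.15 and 7.2), markers of other T cells, overlapped between the populations.

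Of the 19752 genes, 1064 (5.39%) passed an adjusted p under 0.05 with at least a 2-fold difference, 615 of them higher in NK (3.11% of genes) and 449 higher in T8 (2.27%). Counts of list members below, also where none passed, are to be read beside these shares. Large differences lay more often on the NK side by count. At least 8-fold differences numbered 98 in NK and 36 in T8, and at least 32-fold differences 24 and 5. The median difference of all genes was 0.02. At an adjusted p alone, without the fold limit, 1936 genes were higher in NK and 1811 in T8. List counts at an unadjusted p, given below, have no share of all genes beside them. The scatter of population means shows both wings, and the plot of gene lists gives each measured member's difference.

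**Figure D1:**
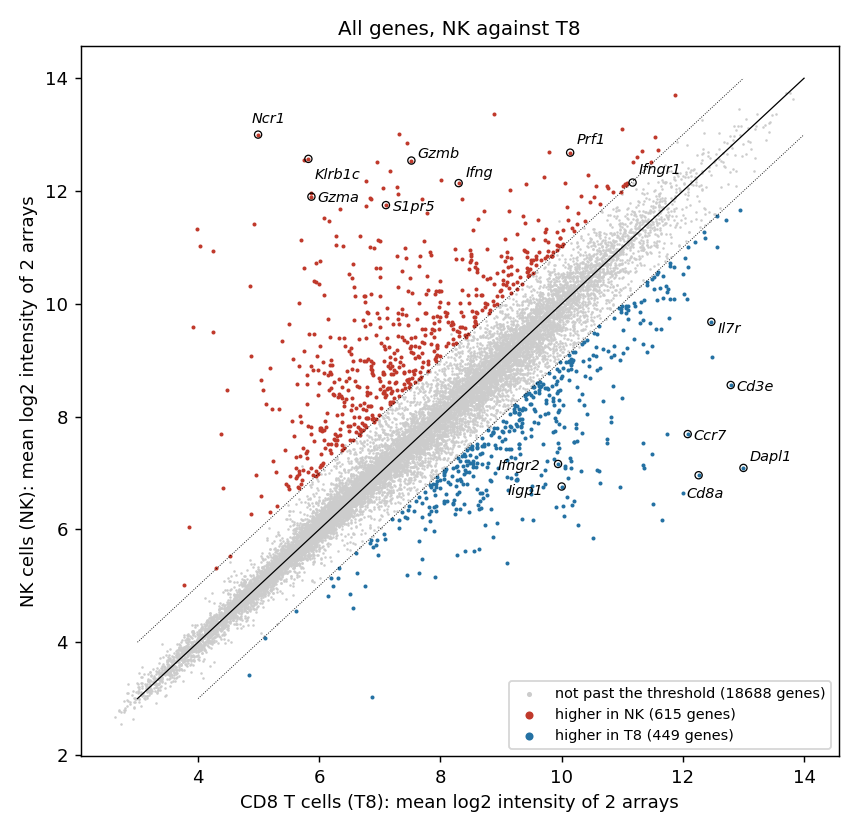
Each point is 1 of 19752 genes, placed by its mean log2 intensity on the 2 T8 arrays (horizontal) and the 2 NK arrays (vertical), with dotted lines at a 2-fold difference. The 615 genes higher in NK (red) reach 257-fold at Ncr1 and the 449 higher in T8 (blue) reach 60.1-fold at Dapl1.

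**Figure D2:**
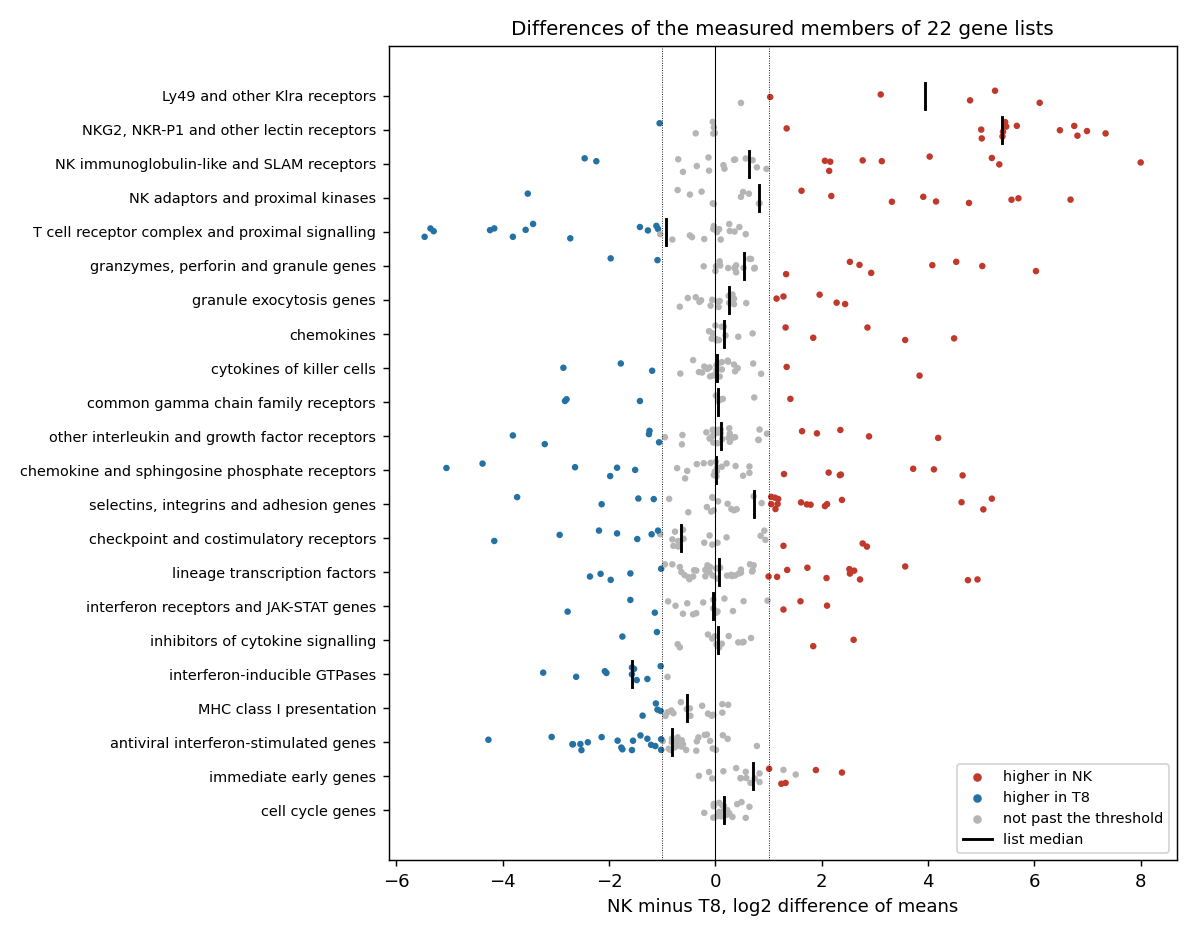
Each point is 1 measured gene of the 22 lists named on the left, placed by its log2 difference NK minus T8, and black bars are list medians. The lectin receptor median is at 5.40 and the GTPase median at -1.57, while cell cycle genes, median 0.16, hold no coloured point.

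Receptors by which NK cells read their targets were higher in NK at most members of the Ly49 and lectin families. Of 11 listed Ly49 receptors (Klra genes), which bind MHC class I and are mostly inhibitory, 6 had a probe set of their own, and 5 of these were higher in NK. Klra8, the receptor Ly49H that recognises a cytomegalovirus protein, read 12.04 and 11.90 on the NK arrays and 6.12 and 5.62 on the T8 arrays, a difference of 6.10 ± 0.25 (68.6-fold, adjusted p = 4.21e-12). Both NK arrays stood far above both T8 arrays. Klra5 was 38.2-fold, Klra3 27.6-fold and Klra6 8.61-fold higher in NK. Klra17 was dim in both populations (4.98 and 5.67 against 4.39 and 4.19) and did not pass without NK replicate 3 or without T8 replicate 3, and Klra2 (difference 0.48 ± 0.39) did not pass. Ly49 genes are close in sequence, so a probe set may also measure a relative.

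Lectin receptors of the NKG2 and NKR-P1 families and their kin gave the highest list median, 5.40, with 13 of 19 members higher in NK and 1 higher in T8. The 13 include Klrb1c, whose protein NK1.1 was used in the NK gate. Klri2, a chain that forms receptors with Klre1, read 11.32 and 11.33 on the NK arrays and 3.93 and 4.04 on the T8 arrays, a difference of 7.34 ± 0.13 (adjusted p = 2.3e-16). Klrb1b, an inhibitory receptor for a Clec2 ligand, read 12.46 and 12.64 against 5.88 and 5.59. Neither pair of arrays approached the other. Klrk1, the activating receptor NKG2D, read 11.97 and 12.14 in NK and 7.0 and 7.1 in T8, 32.2-fold higher in NK. Klrc1, the inhibitory NKG2A chain, was 42.4-fold higher in NK (T8 at 6.39 and 7.16), and Klrg1, a receptor of mature NK and effector T cells, 43.6-fold. Klrd1, the CD94 chain that joins NKG2 proteins at the surface, read 12.08 and 12.10 in NK and 10.83 and 10.67 in T8, a difference of 1.34 ± 0.13. Cd69, an early activation antigen, was the exception in direction, at 10.46 and 10.60 in NK and 11.16 and 12 in T8. Its difference of -1.05 ranged from -1.47 without T8 replicate 2 to -0.63 without T8 replicate 3, and it did not pass without T8 replicate 3 or without NK replicate 2 (-0.98).

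Among 24 immunoglobulin-like and SLAM family receptors, 9 were higher in NK and 2 higher in T8, with a median of 0.64. The 9 include Ncr1, read above as a check of the labels. Cd244a, the SLAM receptor 2B4, read 11.94 and 11.42 against 6.37 and 6.31, a 40.4-fold difference. The Fc receptors for IgG Fcgr3, which triggers killing of antibody-coated cells, and Fcgr2b, which inhibits, were 8.73-fold and 16.3-fold higher in NK. Slamf7, Cd160 and the inhibitory Lilrb4a were between 4.16-fold and 4.47-fold higher in NK. On the T8 side stood Slamf1 (6.13 and 6.61 in NK, 8.82 and 8.84 in T8) and Slamf6 (8.98 and 9.53 against 11.34 and 11.65). Cd226 and Cd96, which share nectin-type ligands with Tigit, differed by -0.70 and -0.61 and stayed under the 2-fold limit.

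Adaptors that carry the signal of these receptors were among the genes with the largest differences. Tyrobp (DAP12), an adaptor with an ITAM for Ly49H and NKG2 receptors, read 12.53 and 12.50 on the NK arrays and 6.98 and 6.91 on the T8 arrays, a difference of 5.57 ± 0.11 (47.6-fold, adjusted p = 9.72e-16). Fcer1g, the shared Fc receptor chain, read 13.03 and 12.98 against 7.21 and 7.41, and Sh2d1b1, the SLAM adaptor EAT-2, 11.01 and 10.85 against 4.17 and 4.33. The groups were widely apart at all 3 adaptors. Hcst (DAP10), the adaptor of NKG2D, overlapped between the populations (9.47 and 9.14 against 9.33 and 9.34), and Cd247, the zeta chain, differed by -0.48 ± 0.15.

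Kinases and phospholipases next to the receptors differed in both directions. Syk, the kinase recruited by ITAM adaptors, read 10.73 and 10.69 in NK and 6.63 and 6.48 in T8, a difference of 4.15 ± 0.11 (adjusted p = 2.95e-14), whereas its relative Zap70 differed by -0.26 ± 0.13 (adjusted p = 0.184). Plcg2 read 10.55 and 10.35 in NK and 6.61 and 6.48 in T8. Plcg1, the isoform coupled to the T cell receptor, ran the other way, at 7.03 and 7.09 in NK and 10.66 and 10.53 in T8. The differences were 15-fold and 11.6-fold, and the arrays of the populations did not overlap at either gene. Lat2, a linker of myeloid, B and NK cells, was 9.95-fold higher in NK, and Lat, the linker of T cells, 2.68-fold higher in T8. In all, 9 of 20 listed adaptors and kinases were higher in NK and 1, Plcg1, higher in T8.

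Of 28 measured T cell receptor and proximal signalling genes, 13 were higher in T8 and none higher in NK (18 and 3 at an unadjusted p under 0.05 in limma), with a list median of -0.93. The 13 include the sorting markers Cd8a and Cd8b1, which are not results. The gates had also parted the populations by TCRB, so the CD3 chains are tied to the gates. Themis, a T cell signalling protein of thymic selection, read 5.83 and 6.51 in NK and 11.69 and 11.61 in T8, a difference of -5.47 ± 0.16 (44.4-fold higher in T8, adjusted p = 5.76e-14). Cd3e, an invariant chain of the receptor, read 8.23 and 8.88 against 12.70 and 12.88. Cd5 and Cd6, which tune receptor signals, were 17.9-fold and 14-fold higher in T8. NK values stayed below the T8 range at these 4 genes. The adhesion receptor Cd2 (11.36 and 11.48 against 11.41 and 11.50) and the adaptor Lcp2 (11.83 and 12.14 against 11.78 and 11.98) overlapped.

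**Figure D3:**
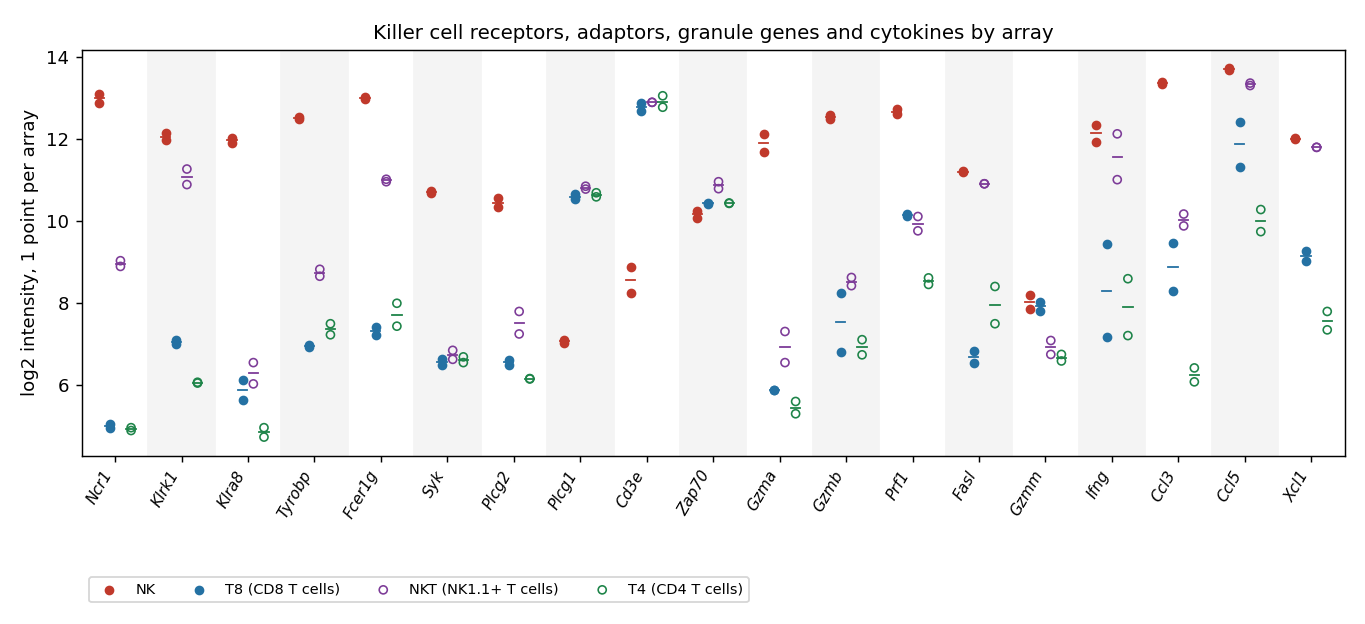
Points are log2 intensities of single arrays, 2 per population, and short lines are means, for NK (red), T8 (blue), NKT (purple, open) and T4 (green, open). Syk and Plcg2 are above 10 on the NK arrays and below 8 on those of the other 3 populations, Zap70 and Gzmm lie close together in NK and T8, and the T8 arrays are far apart at Ifng (7.16 and 9.43).

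Granzymes A and B and perforin, the proteins that granules deliver into a target, were higher in NK. Gzma, a trypsin-like protease, read 12.12 and 11.68 on the NK arrays and 5.88 and 5.87 on the T8 arrays, a difference of 6.03 ± 0.30 (65.3-fold, adjusted p = 5.58e-11). Gzmb, the granzyme that cleaves caspases, read 12.50 and 12.58 in NK and 6.79 and 8.25 in T8, a difference of 5.02 ± 0.35 (adjusted p = 6.65e-09). Its fold of 32.5 ranged from 19.7 without T8 replicate 2 to 53.8 without T8 replicate 3. Prf1, the pore-forming protein, read 12.73 and 12.62 against 10.16 and 10.13, 5.79-fold higher in NK. All NK arrays exceeded all T8 arrays at these 3 genes. In bulk samples, fewer cells that carry a transcript and less of it per cell cannot be told apart.

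Further granule genes fell into groups. Gzmk was 2.52-fold higher in NK (difference 0.98 without T8 replicate 2, under the limit), and Gzmm overlapped between the populations (8.18 and 7.84 against 7.81 and 8.02). The other 6 granzymes, Gzmc to Gzmg and Gzmn, did not pass. The membrane protein Nkg7 (difference 0.53 ± 0.27) and Lamp1 (0.01 ± 0.11), which appears on the surface of degranulating cells, did not pass either. Fasl, the ligand that kills through Fas, read 11.22 and 11.19 in NK and 6.53 and 6.82 in T8, 23.1-fold higher in NK, while its receptor Fas was 3.92-fold higher in T8 (6.86 and 6.86 against 8.91 and 8.74). Serpins that inhibit granzymes inside the killer stood higher in NK, with Serpinb9b at 16.9-fold, Serpinb9 at 7.60-fold and Serpinb6b at 6.55-fold. Tnfsf10 (TRAIL) read 8.46 and 7.89 in NK and 9.44 and 9.09 in T8, 2.13-fold higher in T8, and fell under the limit without NK replicate 3 (-0.81) or T8 replicate 2 (-0.92). In total 8 of 25 granule and death ligand genes were higher in NK and 2 higher in T8. Of 21 genes of granule transport and fusion, 5 were higher in NK, namely the Rab27 effectors Sytl3 (5.43-fold) and Sytl2 (4.84-fold) and the SNARE proteins Stx11, Stx7 and Snap23 (0.98 without NK replicate 3, under the limit), and 16 did not pass.

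Several secreted products of killer cells, Ifng and Ccl3 among them, were higher in NK. Ifng read 11.94 and 12.34 on the NK arrays and 7.16 and 9.43 on the T8 arrays, a difference of 3.84 ± 0.53 (14.3-fold, adjusted p = 3.12e-05). Without T8 replicate 2 the fold was 6.54 and without T8 replicate 3 it was 31.3. Ccl3, an inflammatory chemokine, read 13.34 and 13.39 against 8.29 and 9.47, 22.5-fold higher in NK and 14.9-fold without T8 replicate 2. The T8 arrays differed from each other at both genes, and the NK arrays lay above them. Ccl4 (11.9-fold), Xcl1 (7.28-fold), which draws cross-presenting dendritic cells, and Ccl5 (3.58-fold) were also higher in NK. Ccl5 read 13.73 and 13.69 against 11.33 and 12.41. Its fold was 2.46 without T8 replicate 2 and 5.17 without T8 replicate 3. Cxcl9, an IFNg-induced chemokine, read 8.54 and 9.08 against 7.09 and 7.87 and did not pass without NK replicate 3 or without T8 replicate 2. In all, 5 of 17 chemokines were higher in NK and none higher in T8 (6 and 0 at an unadjusted p under 0.05 in limma). Among 28 cytokines, Tnfsf8, a ligand of CD30 (7.25-fold), Ltb, the membrane partner of lymphotoxin (3.44-fold), and Mif (2.29-fold) were higher in T8, and Ifng and Tnfsf14 higher in NK. Tnf overlapped, at 8.48 and 8.78 in NK and 8.63 and 9.04 in T8.

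Receptors of the common gamma chain family, which bind the survival cytokines of lymphocytes, differed in both directions, with 1 of 9 higher in NK and 3 higher in T8. Il2rb, the beta chain for IL-2 and IL-15, read 12.99 and 12.93 in NK and 11.42 and 11.67 in T8, a difference of 1.41 ± 0.22 (adjusted p = 0.000117). Il7r, the receptor by which naive T cells survive, read 9.72 and 9.63 in NK and 12.42 and 12.53 in T8, a difference of -2.80 ± 0.16 (6.96-fold higher in T8, adjusted p = 2.8e-10). Il21r was 7.12-fold and Il4ra 2.68-fold higher in T8. The populations did not overlap at any of the 4, while Il15ra did (8.80 and 8.91 against 8.84 and 8.77).

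Among receptor chains for IL-12 and IL-18, cytokines that drive IFNg production, Il12rb2, Il18rap and Il18r1 stood higher in NK. Il12rb2, the signalling chain for IL-12, read 12.15 and 12.25 in NK and 7.76 and 8.27 in T8, 18.2-fold higher in NK, whereas Il12rb1, its partner, differed by 0.27 ± 0.15 and did not pass. Il18rap read 11.61 and 11.42 against 8.65 and 8.58, and Il18r1 was 3.10-fold higher in NK. Il10ra (5.09-fold) and Kit, the receptor for stem cell factor (3.76-fold), were also on the NK side. The IL-6 receptor pair was on the T8 side at both chains. Il6st, the shared chain gp130, read 7.52 and 7.57 in NK and 11.37 and 11.33 in T8, 14-fold higher in T8, and Il6ra was 9.26-fold higher. Of 35 receptors outside the common gamma chain family, 5 were higher in NK and 5 in T8.

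Homing receptors, which decide whether a lymphocyte enters lymph nodes or stays in blood and tissue, differed in both directions. Ccr7, which guides cells into lymph nodes, read 7.64 and 7.74 in NK and 12 and 12.15 in T8, a difference of -4.38 ± 0.13 (20.9-fold higher in T8, adjusted p = 1.33e-13). Ccr9, a receptor for a thymic and gut chemokine, read 6.02 and 6.89 against 11.69 and 11.33, 33.3-fold higher in T8. S1pr1 and S1pr5, receptors for the same lipid that leads lymphocytes out of tissue, ran in opposite directions. S1pr1 read 10.17 and 9.95 in NK and 11.52 and 11.62 in T8, and S1pr5 11.87 and 11.63 in NK and 6.82 and 7.37 in T8, 25.2-fold higher in NK. None of the 4 overlapped between the populations. Ccr2 (17.2-fold), the chemerin receptor Cmklr1 (13.2-fold) and the fractalkine receptor Cx3cr1 (4.38-fold) were higher in NK. Cxcr6 (6.22-fold), Gpr183 (3.95-fold) and the follicle receptor Cxcr5 (3.61-fold) were higher in T8. Cxcr3 (11.10 and 10.88 against 10.69 and 10.53) and Cxcr4 did not pass. Among 31 such receptors the count was 7 higher in NK and 6 higher in T8.

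Of 33 adhesion genes, 15 were higher in NK and 4 higher in T8, with a median of 0.72. Itgam (CD11b), an integrin of mature NK cells and myeloid cells, read 11.15 and 10.88 in NK and 6.62 and 6.16 in T8, a difference of 4.63 ± 0.21 (24.7-fold, adjusted p = 1.82e-11). Itga2, the DX5 antigen, and Itgax (CD11c) were 36.7-fold and 32.9-fold higher in NK. Itgb1, the partner chain of Itga2, was 4.28-fold higher in NK. Itgb2, the partner chain of Itgam and Itgax, and the LFA-1 chain Itgal were 2.07-fold and 2.06-fold higher in NK, and both fell under the limit after renewed quantile normalization or with array medians subtracted, Itgb2 also without NK replicate 2 (0.93) or T8 replicate 3 (0.98). Cd44 was 3.05-fold higher in NK. Itgae (CD103), which binds epithelial E-cadherin, read 6.13 and 6.76 in NK and 9.96 and 10.39 in T8, 13.3-fold higher in T8. The NK and T8 arrays were well apart at Itgam and at Itgae, in opposite directions. Jaml, Emb and Pecam1 were between 2.24-fold and 4.41-fold higher in T8.

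Among 48 transcription factors of lymphocyte lineages, 12 were higher in NK and 5 higher in T8. Tbx21 (T-bet), which drives IFNg and effector genes, read 12.25 and 12.23 in NK and 9.62 and 9.81 in T8, 5.75-fold higher in NK. Eomes, its relative, differed less, at 11.87 and 11.91 against 10.74 and 10.34 (2.54-fold, adjusted p = 8.99e-05). Zeb2, a repressor that acts with T-bet in mature effectors, read 10.78 and 10.74 in NK and 5.95 and 6.07 in T8, a difference of 4.75 ± 0.16 (adjusted p = 4.61e-13). No T8 array reached an NK array at these 3 factors. Bhlhe40 was 30.4-fold higher in NK (5.69 and 6.88 on the T8 arrays; 20.1-fold without T8 replicate 2 and 45.9-fold without T8 replicate 3). Prdm1 (Blimp-1) was 11.9-fold, Nfil3, which NK development needs, 5.78-fold, and Id2 4.27-fold higher in NK. On the T8 side were Bcl11b (5.15-fold), which keeps T cell identity, Id3 (4.47-fold), Lef1 (9.88 and 10.31 in NK, 12.02 and 12.12 in T8), Irf4 (3.03-fold) and Foxo1 (2.02-fold, under the limit without NK replicate 2). Runx3, shared by both lineages, differed by 0.48 ± 0.17 and did not pass.

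**Figure D4:**
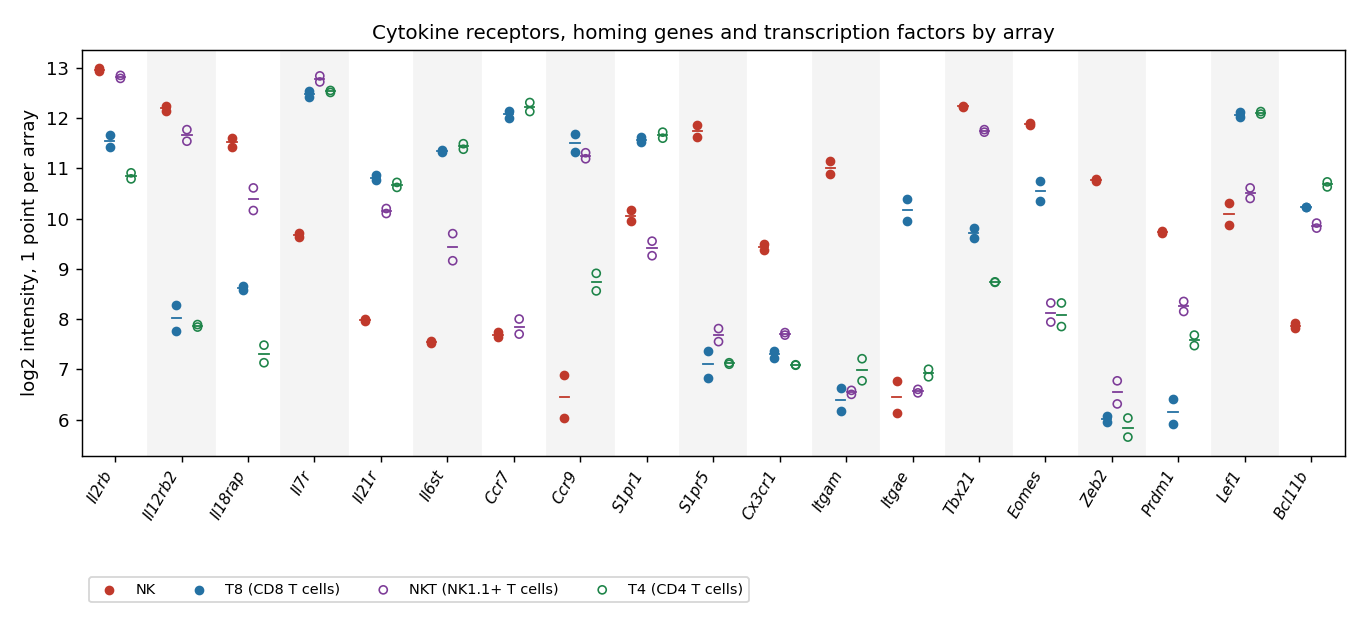
Points are log2 intensities of single arrays and short lines are means, for NK (red), T8 (blue), NKT (purple, open) and T4 (green, open). S1pr5, Itgam and Zeb2 lie above 10 on the NK arrays and below 8 in the other 3 populations, while Il7r is above 12 in T8, NKT and T4 and below 10 in NK.

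Checkpoint and costimulatory genes had a median of -0.66, with 3 of 26 higher in NK and 7 higher in T8. Btla, an inhibitory receptor of lymphocytes, read 6.41 and 7.12 in NK and 9.73 and 9.66 in T8, 7.64-fold higher in T8. Cd274 (PD-L1), an IFNg target, read 9.28 and 9.16 against 10.99 and 11.15, a difference of -1.85 ± 0.10 (adjusted p = 1.32e-10). The arrays of the populations did not overlap at either gene. Cd86, Nt5e and Icos were also higher in T8, between 2.12-fold and 4.56-fold. Entpd1 (CD39), which splits extracellular ATP, was 7.19-fold higher in NK, and Tigit, an inhibitory receptor, read 11.10 and 11.51 in NK and 8.35 and 8.71 in T8. Ctla4 was far apart on the T8 arrays (6.29 and 8.14) and overlapped with NK (5.95 and 6.4), and its difference of -1.04 did not pass, but did at -1.96 without T8 replicate 2.

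The chains of the IFNg receptor differed in opposite directions. Ifngr1, the ligand-binding chain, read 12.21 and 12.10 on the NK arrays and 11.22 and 11.12 on the T8 arrays, a difference of 0.98 ± 0.11 (1.97-fold, adjusted p = 1.57e-06), just under the 2-fold limit. Ifngr2, the signalling chain that brings Jak2, read 6.99 and 7.34 in NK and 9.88 and 10.01 in T8, a difference of -2.78 ± 0.12 (6.87-fold higher in T8, adjusted p = 8.34e-12). At both chains the arrays of one population lay outside the range of the other. The type I interferon receptor chains Ifnar1 (10.27 and 10.06 against 10.30 and 10.11) and Ifnar2 (10.89 and 10.82 against 10.83 and 10.84) overlapped. Ifngr2 was at 7.36 and 7.23 on the NKT arrays, 10.69 and 10.52 in T4, 9.57 and 9.62 in Tgd and 10.58 and 10.46 in Treg. The populations gated on NK1.1 thus held the lowest Ifngr2 values among these 6, although NKT cells carry a T cell receptor.

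Downstream of the receptor, Jak1 differed by 0.33 ± 0.08 and Jak2 by -0.23 ± 0.12, both under the 2-fold limit. Irf1, an early IFNg target and transcription factor, read 11.16 and 10.91 in NK and 11.82 and 12.03 in T8, a difference of -0.89 ± 0.10 under the limit, and -0.27 on its other probe set. Socs1, the feedback inhibitor of Jak kinases, read 8.87 and 9.06 against 9.86 and 10.27, 2.14-fold higher in T8, and was at -0.89 without T8 replicate 3. Usp18, which blunts type I interferon signals, was 3.36-fold and Stat2 2.20-fold higher in T8 (-0.98 without NK replicate 3, under the limit). Irf8 (12.10 and 12.21 against 9.93 and 10.18), which NK cells need for antiviral expansion, Irf5 and Tyk2 were higher in NK. Socs2 was 6.04-fold higher in NK on its brighter probe set (8.84 and 8.33 against 5.92 and 6.06) and differed by 1.22 on the other. Of 21 receptor and JAK-STAT genes, 3 were higher in NK and 3 in T8, and of 18 inhibitors 2 and 2. The shares of all genes were 3.11% and 2.27%.

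The interferon-responsive genes that follow are shown with upstream sequence for 4 of the members higher in T8, to set the letters beside the levels. All 4 hold a match to the motif sought, so they do not stand for the lists. Slfn1, Tap1, Parp12, Oasl2, Psme2, Dtx3l and Isg20, also higher in T8, had a window without a match and are not printed. The RefSeq windows (GRCm38.p6, both strands searched) were scanned for GAAA followed, after any 2 bases, by a second GAAA, the core of the element bound by interferon regulatory factors and ISGF3. Capitals mark matches, which appear as a repeat of TTTC when they lie on the opposite strand. The printed sequences are the 250 bases before the transcription start, at chr11:48871421-48871670 on the minus strand for Irgm1, chr3:142530086-142530335 on the plus strand for Gbp7, chr19:34640639-34640888 and chr19:34583279-34583528 on the plus strand for Ifit1 and Ifit3, and chr13:113100982-113101231 on the minus strand for Gzma, which was chosen as a match on the NK side after its values were seen.
Irgm1: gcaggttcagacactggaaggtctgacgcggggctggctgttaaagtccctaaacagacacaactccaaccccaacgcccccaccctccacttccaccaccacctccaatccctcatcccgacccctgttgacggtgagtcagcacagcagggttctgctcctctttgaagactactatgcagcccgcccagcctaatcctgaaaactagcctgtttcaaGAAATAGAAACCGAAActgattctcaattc
Gbp7: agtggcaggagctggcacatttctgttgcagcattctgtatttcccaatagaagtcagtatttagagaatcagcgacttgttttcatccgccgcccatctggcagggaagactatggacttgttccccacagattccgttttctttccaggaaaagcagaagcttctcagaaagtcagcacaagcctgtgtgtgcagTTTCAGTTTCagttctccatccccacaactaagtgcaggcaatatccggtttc
Ifit1: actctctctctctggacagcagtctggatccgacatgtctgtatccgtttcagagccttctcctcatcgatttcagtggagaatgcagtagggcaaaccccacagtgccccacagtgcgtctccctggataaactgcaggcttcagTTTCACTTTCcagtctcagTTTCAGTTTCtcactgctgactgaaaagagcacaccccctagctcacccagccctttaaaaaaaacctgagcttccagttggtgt
Ifit3: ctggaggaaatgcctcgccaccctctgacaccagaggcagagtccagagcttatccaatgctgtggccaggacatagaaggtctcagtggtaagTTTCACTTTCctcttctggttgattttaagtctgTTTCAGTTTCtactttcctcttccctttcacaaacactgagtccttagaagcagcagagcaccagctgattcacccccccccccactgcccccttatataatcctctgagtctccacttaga
Gzma: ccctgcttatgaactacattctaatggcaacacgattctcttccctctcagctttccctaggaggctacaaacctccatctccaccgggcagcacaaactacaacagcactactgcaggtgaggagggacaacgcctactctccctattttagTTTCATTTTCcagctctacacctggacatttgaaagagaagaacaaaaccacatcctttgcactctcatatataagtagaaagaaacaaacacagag
The first match begins 30 bases before the start in Irgm1, 53 in Gbp7, 104 in Ifit1, 156 in Ifit3 and 97 in Gzma.

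A window of 300 bases, which adds 50 bases after the start, was at hand for 15483 of the genes tested, and 3.88% of these held the spaced GAAA repeat. Among genes higher in NK 3.79% (18 of 475) held it, and among genes higher in T8 9.06% (31 of 342). With the GTPase, class I and antiviral lists left out, the T8 share was 6.75% (22 of 326). Within those lists, 16 of the 33 genes higher in T8 had a window and 9 of the 16 held a match. The repeat also lay in 2 of the 8 granule genes higher in NK. TTCNNNGAA, the core of the gamma-activated site, lay in 8.95% of all windows, 8.84% of those higher in NK and 8.48% of those higher in T8. Of the 16 interferon list genes above 3 held it (18.8%), and of the 8 granule genes 1. Matches of the 2 motifs overlapped in 14 of 19019 windows. A match is a description of letters, and no binding was measured.

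GTPases of cell-autonomous defence, the classical targets of IFNg, had a lower mean in NK at each of the 11 measured members, and 10 of 11 were higher in T8 by the test, beside 2.27% of all genes. None was higher in NK, also at an unadjusted p under 0.05 in limma. Iigp1, which attacks the vacuoles of intracellular parasites, read 6.70 and 6.82 on the NK arrays and 10.35 and 9.66 on the T8 arrays, a difference of -3.24 ± 0.19 (9.44-fold higher in T8, adjusted p = 4.87e-10). Gbp11 read 7.89 and 7.53 against 10.43 and 10.23, 6.14-fold higher in T8. Irgm1, a regulator of the other GTPases and the first of the sequences above, read 9.67 and 9.46 in NK and 11.63 and 11.65 in T8, 4.22-fold higher in T8. The arrays did not overlap at any of the 11 genes, a description of 2 arrays against 2 without the share over all genes beside it. Gbp9 (4.14-fold), Gbp8, Gbp4, Gm4951, Gbp7, Gbp5 and Gbp3 (2.05-fold) followed in that order. Gbp3 fell under the limit without NK replicate 3 (-0.89) or T8 replicate 2 (-0.93), and Gbp2b, dim in both populations, differed by -0.90 ± 0.14 under the limit. The other 9 of 20 listed GTPases had no probe set of their own, and related Gbp genes may share signal.

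Genes of MHC class I presentation showed a list median of -0.54, and 4 of 19 measured were higher in T8 and none in NK (13 and 0 at an unadjusted p under 0.05). Tap1, a subunit of the peptide transporter, read 10.72 and 10.63 in NK and 11.79 and 11.79 in T8, a difference of -1.12 ± 0.09 (2.17-fold higher in T8, adjusted p = 2.05e-08). Nlrc5, the transactivator of class I genes, read 11.15 and 11.38 against 12.35 and 12.36, and its 18 other probe sets differed by -0.93 to -1.51. H2-T24 and the proteasome activator subunit Psme2 were 2.58-fold and 2.04-fold higher in T8. Nlrc5 fell under the limit without NK replicate 2 (-0.98), and Psme2 without NK replicate 3 (-0.78) or T8 replicate 2 (-0.90). B2m, the light chain of class I, overlapped (13.16 and 13.17 against 13.13 and 13.27), and Psmb9, a subunit of the immunoproteasome, stood under the limit at -0.94 ± 0.16.

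Antiviral interferon-stimulated genes held the largest single difference of the 3 interferon lists. Slfn1, a Schlafen gene of lymphocyte growth control, read 7.05 and 7.14 in NK and 11.45 and 11.27 in T8, a difference of -4.27 ± 0.27 (19.3-fold higher in T8, adjusted p = 1.29e-09). Ifi27l2a read 6.85 and 7.31 against 10.26 and 10.05. Ifit1, which binds foreign RNA ends, read 7.62 and 7.49 against 10.44 and 10.05, and Ifit3, its partner, 7.42 and 7.34 against 9.99 and 9.86. NK values lay well below T8 values at all 4. Oas2, which makes the activator of RNase L (6.43-fold), Parp12 (5.73-fold), Slfn5 (5.28-fold) and Oasl2 (4.42-fold) were also higher in T8. Sp100 (12.31 and 12.33 against 12.28 and 12.35) overlapped, and Ifitm3 differed by 0.78 ± 0.26 and did not pass (1.15 without NK replicate 2 and 1.01 without T8 replicate 2, past the threshold). Of 45 measured genes 19 were higher in T8 and none in NK (37 and 1 at an unadjusted p under 0.05 in limma), with a median of -0.82.

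Over the 3 lists together, 33 of 75 measured genes were higher in T8, beside 2.27% of all genes, and none higher in NK (61 and 1 at an unadjusted p under 0.05 in limma), and the median was -0.88 beside 0.02 for all genes. Of the 75, 68 had a lower mean in NK. Without T8 replicate 2 the count was 27 and without T8 replicate 3 it was 39. At an adjusted p without the fold threshold, 59 of the 75 were higher in T8 and 1 in NK, beside 1811 and 1936 of all 19752 genes. No share of all genes is given for the unadjusted p. The lists were drawn up with earlier results of these arrays known, and many of the genes answer to type I as well as type II interferon.

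**Figure D5:**
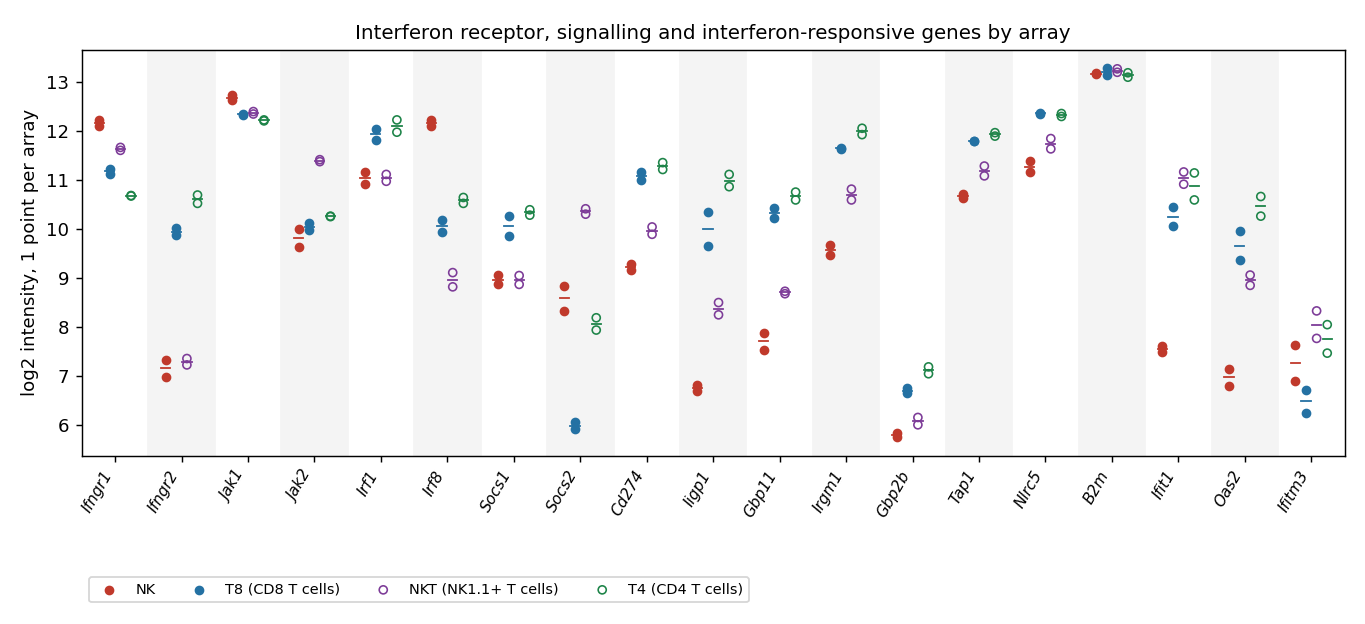
Points are log2 intensities of single arrays and short lines are means, for NK (red), T8 (blue), NKT (purple, open) and T4 (green, open). Ifngr2 is low in NK and NKT (6.99 to 7.36) and above 9.8 in T8 and T4, whereas Ifit1 is low in NK (7.62 and 7.49) and at 10.91 and 11.16 in NKT.

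NKT cells, which share the NK1.1 gate with NK and the receptor with T8 stood near NK at some genes and near T8 at others. At Iigp1 NKT read 8.25 and 8.5, between NK and T8. At Ifit1 NKT read 10.91 and 11.16, above both populations, and Slfn1 read 10.48 and 10.85 in NKT. Irgm1 read 10.59 and 10.81 and Tap1 11.08 and 11.28 in NKT, again between NK and T8. NKT resembled NK at Il12rb2 (11.77 and 11.54), Tbx21 (11.72 and 11.77) and Bhlhe40 (10.85 and 10.74), and T8 at Il7r (12.84 and 12.72) and Il21r (10.10 and 10.20). Gzma in NKT was at 6.54 and 7.30 and Gzmb at 8.42 and 8.62, nearer to T8, while Ifng was at 12.13 and 11.01, nearer to NK. These levels are descriptions, and no test was run between NKT and either population.

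Outside the lists, the T8 wing was led by Dapl1, at 6.6 and 7.59 in NK and 12.94 and 13.06 in T8, a difference of -5.91 ± 0.23 (60.1-fold higher in T8, adjusted p = 2.54e-12). Fam169b (25.6-fold), the lipid phosphatase Inpp4b (18.5-fold), the peptidase Dpp4 or CD26 (18.4-fold) and the lipoprotein sensor Tlr1 (18.2-fold) followed, each without overlap between the populations. Of 20 BCL2 family and death genes, 3 were higher in NK and none in T8 (6 and 2 at an unadjusted p under 0.05 in limma). Casp1 and Casp4, the inflammatory caspases, were 10.6-fold and 6.87-fold higher in NK, with Casp1 at 8.63 and 8.32 in NK and 4.98 and 5.16 in T8. Bcl2 overlapped (11.13 and 11.14 against 10.99 and 11.36). Among the MS4A genes, Ms4a4c (3.98-fold), Ms4a6b (3.61-fold), Ms4a6d and Ms4a4d were higher in T8, Ms4a6c (2.07-fold) and Ms4a1 were higher in NK, and no GIMAP gene passed. Ms4a4d fell under the limit without NK replicate 2 (-0.93) or T8 replicate 2 (-0.89), and Ms4a6c without T8 replicate 3 (0.83). None of 19 cell cycle genes passed in either direction, beside 5.39% of all genes. At an unadjusted p under 0.05 in limma 3 were higher in NK. Mki67, the proliferation antigen, read 8.87 and 7.91 in NK and 7.90 and 7.59 in T8, and passed without NK replicate 3 (1.12).

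Of the markers of other T cells, 1 of 8 CD4 T cell genes was higher in NK (Zbtb7b) and 1 in T8 (Izumo1r), and 1 of 6 gamma delta genes was higher in NK (Maf). Of 8 genes of type 1 innate lymphoid cells, which pass an NK1.1+ TCRB- gate, Itga1 (3.29-fold) and Tmem176b (2.81-fold) were higher in NK, and Cxcr6, Il7r and Tnfsf10, all made by T cells too, were higher in T8. Their summed linear intensity was 2610 and 2631 in NK and 8257 and 8190 in T8. Much of the T8 sum lay in Il7r (log2 9.72 and 9.63 in NK, 12.42 and 12.53 in T8). The sums therefore do not measure how many such cells passed the NK gate, which was not tested. No erythroid and platelet gene of 6 passed, 2 being higher in NK at an unadjusted p under 0.05 in limma, and 1 passed without NK replicate 2.

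Markers of cells outside both gates passed the test at 7 genes, and most of the rest had the higher mean in NK without passing. The mean was higher in NK for 12 of 12 granulocyte, 14 of 14 monocyte and macrophage, 9 of 10 B cell and 10 of 12 dendritic cell markers, beside 10620 of all 19752 genes. The summed linear intensity was 1551 and 2127 in NK and 1863 and 1679 in T8 for 10 B cell markers, and 903 and 1460 against 832 and 744 for 12 granulocyte markers, none of which passed (2 were higher in NK at an unadjusted p under 0.05 in limma). Without NK replicate 2, which leaves the array with the higher sum, 3 granulocyte markers passed, Ngp (2.26) and Lcn2 (1.75) among them. For 14 monocyte and macrophage markers it was 4647 and 4881 against 1578 and 1800, and for 12 dendritic cell markers 1933 and 3043 against 1577 and 1288. Much of the monocyte and macrophage gap lay in Ccr2, given above as a homing receptor (log2 11.45 and 10.78 in NK, 7.14 and 6.88 in T8). Much of the B cell sum in T8 lay in Cd79b (log2 8.62 and 9.27 in NK, 9.94 and 9.88 in T8). Cd79b was the B cell marker with the lower mean in NK. On these arrays a probe set never reads 0. The macrophage genes Csf1r, Adgre1 and C1qa did not pass, and of that list Ccr2 and Ly86 were higher in NK. Ly86 read 7.90 and 8.85 against 7.13 and 7.08 and did not pass without NK replicate 3 (0.80). The MHC class II genes H2-Aa, Cd74 and H2-Ab1 were 2.99-fold, 2.87-fold and 2.08-fold higher in NK, and none of the 3 passed without NK replicate 3 or without T8 replicate 3. The other 9 dendritic cell markers, Flt3, Zbtb46, Xcr1 and Siglech among them, did not pass. Ngp and Lcn2, granulocyte genes, were 1.73 and 1.33 higher on NK replicate 3 than on NK replicate 2. B cell genes Ms4a1 and Cd79a were 2.50-fold and 2.12-fold higher in NK and did not pass without T8 replicate 3 (0.78 and 0.77), Ms4a1 also not without NK replicate 3 (adjusted p = 0.0596) and Cd79a also not with the offset of 32 (0.87), while Cd79b stood at -0.96 ± 0.19. The part of such cells in any other result was not tested.

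Immediate early genes also moved with the comparison, with 5 of 20 higher in NK, none in T8 (10 and 0 at an unadjusted p under 0.05 in limma) and a median of 0.70. Nr4a2 read 10.36 and 11.41 in NK and 7.73 and 9.27 in T8, 5.20-fold higher in NK (3.05-fold without T8 replicate 2, 8.88-fold without T8 replicate 3). Fosb read 9.64 and 10.40 against 7.28 and 8.98, and Nr4a1 10.03 and 11.16 against 8.80 and 9.74. Fosb and Nr4a1 did not pass without NK replicate 3 or without T8 replicate 2. Fos (8.98 and 9.94 against 6.88 and 9.47) overlapped. The count of 5 was 2 without NK replicate 3 or T8 replicate 2 and 8 without T8 replicate 3, and 7 with the replicate number as a block. T8 replicate 3, high at these genes, was also the T8 array with the higher Ifng, Gzmb and Ccl3, and their relation was not tested.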

How the data were processed

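The 18 arrays were Affymetrix Mouse Gene 1.0 ST, hybridised with labelled RNA that was extracted with TriZol from cells sorted on a FACSAria, per the labels' protocols. The deposited intensity values, 1 per probe set and array on a linear scale, were made by the authors with Affymetrix Power Tools and RMA, per the submitters' processing notes. The versions, and whether all arrays were normalized together, are not given in the sources used here. Folds of dim genes understate the change, since RMA compresses them. The number of arrays limits the precision.

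Log2 was taken. Of 24922 probe sets, 21425 had 1 gene symbol, 1399 several and 2098 none, by the platform annotation in GEO, whose symbols were brought up to date through Entrez numbers in RefSeq (GRCm38.p6, 21347 found). Genes were named only from probe sets with 1 symbol, and for the 921 genes with several such probe sets the brightest was used, which left 19752 genes. Listed genes without such a probe set were not analysed here.

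Differences were fitted with limma 3.58.1 in R 4.3.3 on all 18 arrays, with 1 mean per population, a mean-variance trend and 2-sided moderated tests of NK minus T8 (9 residual and 7.69 prior degrees of freedom). The other populations enter only to estimate the spread. The threshold was an adjusted p (Benjamini-Hochberg, over the 19752 genes) under 0.05 together with a difference of 2-fold or more. Errors are standard errors of the fit. Every p is an adjusted p of limma unless it is called unadjusted. The pipeline was tested on simulated data.

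The members and gene lists were chosen with earlier results of these data known. Named genes are a fixed set of markers, up to 5 members of each list and the 12 genes of all with the largest difference in each direction among those past the threshold (without clone, small RNA, predicted or receptor segment names), and list members described as a family. Lists were described by counts and medians. Alternatives were the samples in the fit, a replicate block, scaling, an offset of 32, a filter on dim genes, the summary of probe sets, the trend, the fold threshold and leaving out each array. RefSeq promoter windows run from 250 bases before to 50 after each start.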

Additional observations from a re-analysis of the deposited data

How the results depend on the processing

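Of the settings tried, those that keep the fold threshold gave 891 to 1163 genes past it, beside 1064. The offset of 32 gave the lowest count, and no gene called in both changed direction under any setting. Leaving out 1 array gave 1024 to 1163 genes, 606 to 657 higher in NK and 418 to 534 higher in T8. Without the fold threshold 3747 genes passed, 1936 higher in NK and 1811 higher in T8. With a 4-fold threshold 328 passed, 223 higher in NK and 105 higher in T8. Both follow from the construction of the threshold. Of the 192 genes called among those named, 162 stayed past the threshold under all 13 settings that keep it. The other 30 dropped out under at least 1, among them Gata3 (1.00), Foxo1 (-1.02), Psme2 (-0.78 without NK replicate 3), Rsad2 (-0.73 without T8 replicate 2) and Klra17 (0.49 with the offset). Genes under the limit could also pass it, among them Ifngr1 (1.04 without NK replicate 3), Irf1 (-1.02 without NK replicate 2), Psmb9 (-1.04 after quantile normalization) and Ctla4 (-1.96 without T8 replicate 2).

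The replicate numbers of the labels were also fitted as a block. With the replicate block 1068 genes passed, and Fos, Dusp1 and Ctla4 did so newly (adjusted p 0.0258, 0.0129 and 0.0194 in limma), so that 7 rather than 5 immediate early genes were higher in NK. The deviations of same-numbered NK and T8 arrays from their population means correlated at 0.468 across genes, but 2 pairs and no statement in the labels do not make the numbers a pairing. Same-numbered arrays gave 0.341 for T8 with T4, 0.338 for T8 with Treg, 0.33 for NK with Treg and 0.127 for NK with T4. With Tgd and MF (peritoneal macrophages) the values ran from -0.006 to 0.085. Whether a number marks a shared batch was not tested. Dim genes have the least signal over background, and with them left out 1009 of 10222 genes passed.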
